A study of Rattus norvegicus with 6 samples.

Results

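Translesion synthesis is the damage tolerance pathway in which specialised DNA polymerases copy past bases that stall the replicative polymerases. RNA levels of 9 of its genes were examined in NRK-52E cells treated with streptozotocin (STZ). The genes, taken by symbol from the deposited count table, were Polh, Polk, Poli, Rev1, Rev3l, Mad2l2, Polq, Rad18 and Usp1. All 9 were found among its 18930 genes, each on 1 row, and all 9 passed the filter on low counts, which left 11870 genes for testing. Polh and Rev1 rose in STZ-treated cells, by 28.7% and 20.7%, while Usp1, Mad2l2, Polq and Rev3l fell, by 38.1%, 18.2%, 15.2% and 11.9%. The fall of Rev3l was less certain, with overlapping groups and a call that held in 13 of 17 refits under other settings. Polk, Poli and Rad18 did not pass the test.

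NRK-52E is an established line of wild-type epithelial cells from rat kidney, and STZ is a methylating nitrosourea that is used against neuroendocrine tumors. RNA was taken from 3 Control samples, which had received vehicle, and from 3 STZ samples kept at 10 mM of STZ for 24 h. The cells were otherwise alike in genotype and source. The comparison asked which genes respond to this exposure. The sources do not say whether samples of a group were separate cultures, so p-values measure the spread between these samples, which may be technical.

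Reads mapping to genes numbered between 10430924 and 12737131 in Control samples and between 11658253 and 15191349 in STZ samples. Of the epithelial markers, Krt8 had 13720 to 20070 normalized counts per sample, Cdh1 had 13.3 to 37.6, and Krt18 at most 2.71, while the mesenchymal marker Vim had 22750 to 26210. The proximal tubule markers Lrp2, Cubn, Slc34a1 and Slc5a2 had at most 8.31 normalized counts in any sample and were not tested, and Aqp1 had 58.1 to 189. Markers of endothelium and leukocytes had at most 9.73 normalized counts apart from Cd68, with 7.92 to 26.2. Of the markers that define the labelled epithelium, Krt8 was thus abundant, Cdh1 low and Krt18 near 0, and those of the mature proximal tubule other than Aqp1 were near 0. Krt19 and Epcam, also on the epithelial list, were not found by symbol among the genes counted. In STZ samples Krt8 was higher and Cdh1 and Aqp1 lower (log2 fold changes 0.48, -0.69 and -1.25 by edgeR, adjusted p = 1.8e-15, 0.03 and 9.4e-09). Of all genes tested, 25.9% were higher and 25.1% lower at an adjusted p under 0.05 by edgeR. All 4 genes of the fibroblast or smooth muscle list fell. Their log2 fold changes were -0.12 for Vim, -0.27 for Col1a1, -0.33 for Pdgfrb and -0.21 for Acta2 (edgeR, adjusted p = 0.0052, 0.0092, 0.0029 and 0.0036). Their summed level was 1993 to 2215 CPM in Control and 1917 to 1951 CPM in STZ samples, and the part of these shifts in the results for the 9 genes was not tested.

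When a fork meets a blocking lesion, RAD18 and its partner RAD6 attach ubiquitin to PCNA, the clamp that holds polymerases on DNA, and USP1 takes it off again. Ubiquitinated PCNA recruits the Y-family polymerases eta (Polh), kappa (Polk), iota (Poli) and REV1, which place a base opposite the lesion. REV1 is also a scaffold for polymerase zeta, which extends from that base and is built on REV3L, the catalytic subunit, with MAD2L2 (REV7). Polymerase theta (Polq) works mainly in the joining of broken ends that share short homologies. Polymerase eta is best known for accurate bypass of ultraviolet photoproducts, and human POLH has been described as a target of p53.

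The start regions of Polh and Usp1, which had the largest rise and the largest fall of the 9 genes, are shown first, as RefSeq promoter windows on GRCr8, each from 250 bases before to 50 bases after the annotated start, 5′ to 3′ on the strand of the gene. Capitals mark the NRF1 motif (GCATGCGC) in Polh and the E2F motif (TTTCCCGC, TTTCGCGC, TTTGCCGC or TTTGGCGC) in Usp1, both searched on both strands. The Polh window is on the plus strand at chr9:22275679-22275978, and the Usp1 window on the plus strand at chr5:118702806-118703105.
Polh: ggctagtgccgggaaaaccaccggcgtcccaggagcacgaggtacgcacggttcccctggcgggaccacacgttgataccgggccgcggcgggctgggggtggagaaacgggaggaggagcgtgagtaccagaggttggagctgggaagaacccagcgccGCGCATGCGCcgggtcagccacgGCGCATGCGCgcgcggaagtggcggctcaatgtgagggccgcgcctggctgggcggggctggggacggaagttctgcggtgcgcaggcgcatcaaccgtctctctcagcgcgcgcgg
Usp1: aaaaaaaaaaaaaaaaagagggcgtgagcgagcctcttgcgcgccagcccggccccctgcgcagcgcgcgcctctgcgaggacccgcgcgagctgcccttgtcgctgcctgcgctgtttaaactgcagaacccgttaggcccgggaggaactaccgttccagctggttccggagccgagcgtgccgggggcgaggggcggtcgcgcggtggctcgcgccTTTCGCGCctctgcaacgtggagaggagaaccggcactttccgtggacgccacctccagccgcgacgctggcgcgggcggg
The NRF1 motif stood in the Polh window at 2 places, each within a palindromic stretch of 10 bases, GCGCATGCGC. Each place was matched on both strands, which gave 4 matches in all. It was found in 2.47% of 33469 rat promoter windows of 300 bases. The E2F motif was found once in the Usp1 window, 31 bases before the start, and in 2.14% of all windows.

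Shorter stretches are shown for other members in which one was found, with the motif in capitals. These are the E2F motif in Polk (minus strand, chr2:29616918-29616949), a CCAAT box (CCAAT, either strand) in Mad2l2 (plus strand, chr5:163855118-163855146), and the CHR element (TTTGAA) in Polq (minus strand, chr11:77281254-77281283).
Polk: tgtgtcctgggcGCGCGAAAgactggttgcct
Mad2l2: ggcgcggtccggATTGGacagctccgggg
Polq: gggatgcctgaaTTTGAAgcagaggcggga
A CCAAT box was present in 37.5% and a CHR element in 18.3% of all windows. Of both Rev1 windows in the table, 1 held a CHR element. No window of Rad18 or Poli held any of these letters. A full p53 site was searched as the pattern RRRCWWGYYY, repeated after a gap of up to 13 bases. In it R is A or G, W is A or T, and Y is C or T. This site was in none of the windows searched for 8 of the members and in 0.0598% of all windows. A single p53 arm, RRRCWWGYYY, was in none of them and in 7.98% of all windows. The motifs were chosen after the sequences had been looked at, binding was not measured in these cells, and a match is a description of letters only. The full p53 site is rare in all windows and no other regions were searched, so its absence here carries no conclusion.

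Levels are given as normalized counts, that is, read counts divided by the library size after TMM scaling and brought to the mean library size. They are not corrected for transcript length, so levels are compared between samples and not between genes. A gene was taken as changed when its adjusted p-value by the quasi-likelihood test of edgeR was under 0.05. Of the 9 genes, 6 passed (66.7%), against a background of 50.9% of all genes tested. In detail, 2 were higher, against 25.9% of all genes, and 4 were lower, against 25.1% of all genes. The normalized counts of the groups did not overlap in 6 of the 9 genes, against 56.3% of all genes. With the additional requirement of an absolute log2 fold change over 1, which 3.37% of all genes met, 0 of the 9 genes passed by edgeR. At an unadjusted p under 0.05, 7 of the 9 passed, 0 of them with that fold change, and DESeq2 likewise gave 0 past both thresholds. The median absolute log2 fold change of the 9 genes was 0.24, and that of all genes tested was 0.19.

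**Figure D1:**
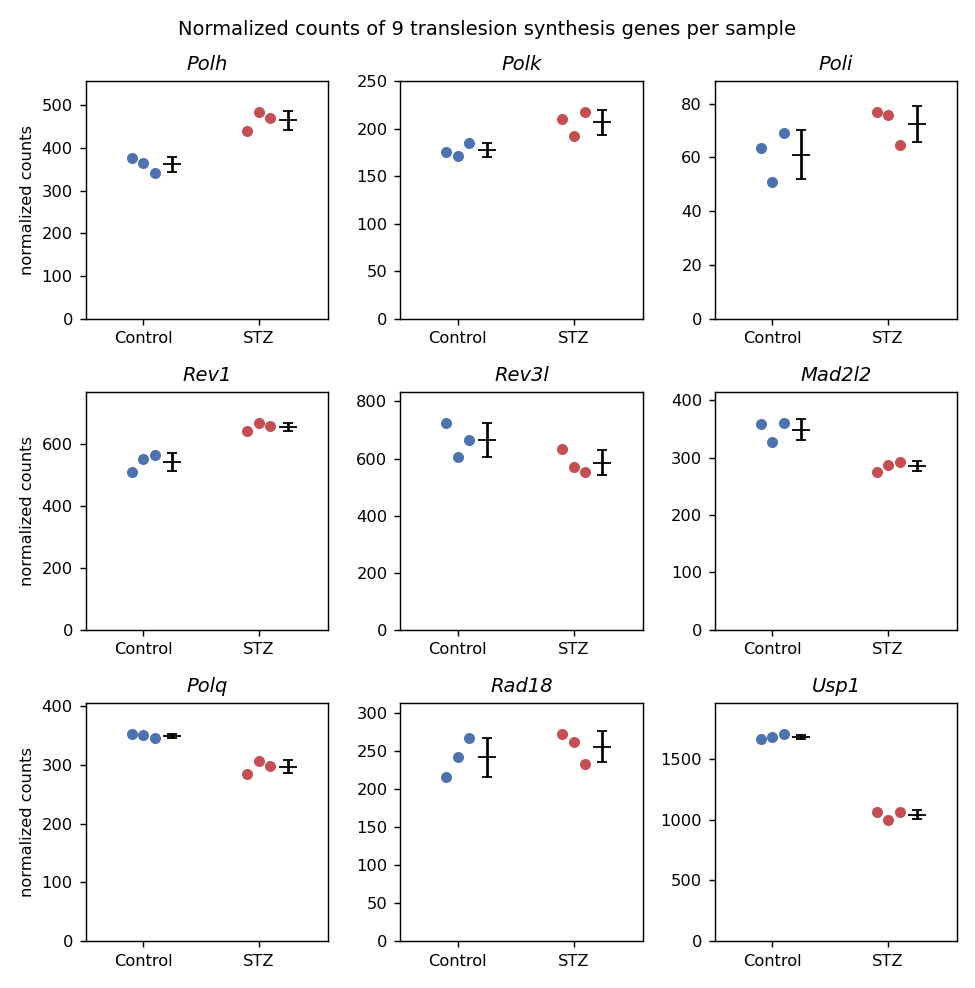
Normalized counts (vertical axes, from 0) of the 9 genes in each Control and STZ sample. Points are samples and bars are the mean ± SD of 3 samples. Control and STZ points are fully separated for Polh, Polk, Rev1, Mad2l2, Polq and Usp1, and mixed for Poli, Rev3l and Rad18.

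Among the Y-family polymerases, Polh showed the largest rise. It had 377.8, 364.5 and 342.6 normalized counts in Control samples and 440.6, 484.5 and 470.1 in STZ samples. Every STZ sample lay above every Control sample. The mean went from 362 ± 17.8 (SD, n = 3) to 465 ± 22.4 (SD, n = 3), a log2 fold change of 0.36 (SE, the standard error, 0.07 and adjusted p = 2.8e-05 by edgeR). Its 95% interval ran from 0.22 to 0.51, and 87.3% of all genes tested had a log2 fold change at or under its value.

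Rev1, the polymerase that inserts cytosine and holds the other translesion polymerases together, rose as well. Control samples had 510.4, 553.5 and 563.9 normalized counts, and STZ samples had 642.4, 668.3 and 658.6. The groups did not overlap, and the 3 STZ samples were closer together than the 3 Control samples. The log2 fold change of Rev1 was 0.27 (SE 0.06, adjusted p = 1.9e-04 by edgeR, 95% interval 0.15 to 0.39).

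Polk and Poli had positive but uncertain values. Polk, which bypasses bulky adducts on guanine, had 176.0, 170.9 and 185.4 normalized counts in Control samples and 209.9, 192.5 and 217.6 in STZ samples. The groups were separate, yet its log2 fold change of 0.22 (SE 0.10) missed the threshold, with an adjusted p of 0.053 by edgeR. Without STZ replicate 2, its lowest treated sample, Polk passed with a log2 fold change of 0.27 (edgeR, adjusted p = 0.035). Over the 17 alternatives that required no minimum fold change, the adjusted p was 0.035 to 0.17. Poli, whose polymerase copies some damaged purines, was the gene with the fewest reads, 45 to 71 in Control and 70 to 85 in STZ samples. Its log2 fold change was 0.23, with a 95% interval of -0.10 to 0.57 (edgeR, adjusted p = 0.25), which includes both 0 and the value of Polh. It was 0.12 without Control replicate 2 and 0.34 without Control replicate 3. The span of Poli overlaps that of Stard6 in the GRCr8 annotation, and whether reads were counted by strand is not given in the sources used here. Stard6 had 23 to 38 reads per sample and a log2 fold change of 0.07 (edgeR, adjusted p = 0.82).

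Both subunits that define polymerase zeta were lower. Mad2l2 had 357.9, 327.1 and 360.1 normalized counts in Control samples and 275.0, 287.7 and 293.2 in STZ samples. No STZ sample reached the lowest Control sample. Its log2 fold change was -0.29 (SE 0.08, adjusted p = 0.0017 by edgeR, 95% interval -0.44 to -0.13). Mad2l2 is also a subunit of shieldin, which guards broken ends from resection, and acts in mitotic checkpoint control.

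Rev3l fell less, and its fall was less certain. It had 724.0, 605.6 and 665.9 normalized counts in Control samples and 634.2, 572.1 and 551.5 in STZ samples. STZ replicate 1 lay above Control replicate 2, so the groups overlapped. The log2 fold change was -0.18 (SE 0.06, adjusted p = 0.016 by edgeR, 95% interval -0.31 to -0.05). Without Control replicate 1, the highest sample, it was -0.12 (edgeR, adjusted p = 0.14). The call was also lost without STZ replicate 2 (-0.17, adjusted p = 0.061) or STZ replicate 3 (-0.14, adjusted p = 0.14), and by the Wald test of DESeq2 (-0.18, adjusted p = 0.059).

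Polq, the end-joining polymerase, had 352.0, 350.9 and 345.5 normalized counts in Control samples and 285.0, 307.1 and 297.3 in STZ samples. The Control samples were nearly equal and all lay above the STZ samples. Its log2 fold change was -0.24 (SE 0.08, adjusted p = 0.0074 by edgeR, 95% interval -0.39 to -0.09).

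Rad18, the ubiquitin ligase of PCNA, had 214.7, 242.2 and 266.0 normalized counts in Control samples and 271.4, 261.7 and 232.5 in STZ samples. These values were mixed, and its log2 fold change was 0.07 (SE 0.09, adjusted p = 0.54 by edgeR). The 95% interval of Rad18, -0.11 to 0.26, does not hold a fall of the size seen in Usp1.

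Usp1, the protease that reverses this mark, had 1667, 1677 and 1703 normalized counts in Control samples and 1064, 1000 and 1059 in STZ samples. All STZ samples lay far below all Control samples. The mean went from 1683 ± 18.6 (SD, n = 3) to 1041 ± 35.4 (SD, n = 3), a log2 fold change of -0.69 (SE 0.05, adjusted p = 1e-16 by edgeR, 95% interval -0.78 to -0.60). Only 2.91% of all genes tested had a log2 fold change at or under that of Usp1. Usp1 was also the 1 member that passed when the fold change itself was required to exceed 0.5 on the log2 scale (glmTreat of edgeR, adjusted p = 3.9e-04).

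**Figure D2:**
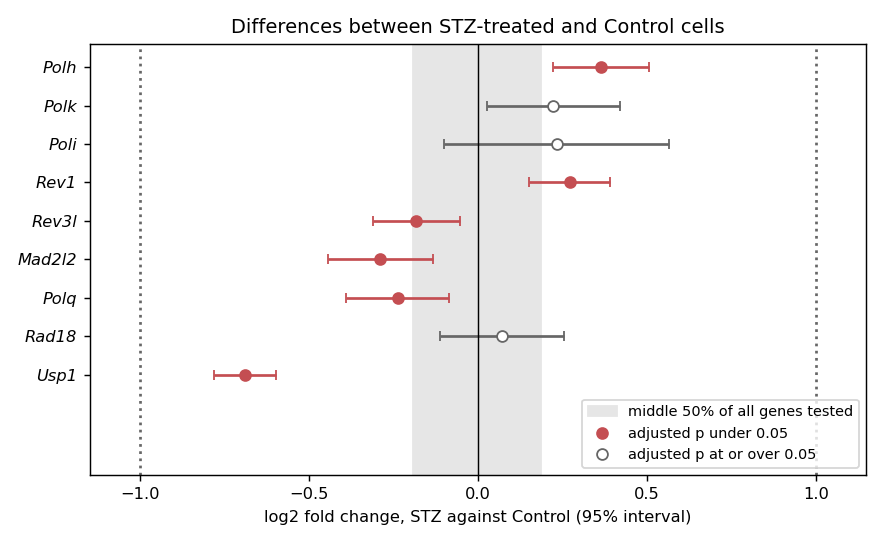
Log2 fold change of each gene (horizontal axis, STZ against Control) with its 95% interval from the edgeR fit. The grey band holds the middle 50% of all genes tested, from -0.19 to 0.19, and dotted lines mark the fold-change threshold of 1. Usp1 lies apart at -0.69, Mad2l2 and Polq also lie to the left of the band, and Polh, Rev1, Polk and Poli lie to its right. No gene reaches a dotted line.

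Since the genes moved in both directions, ratios of read counts between 2 of them were taken within each sample, in which library scaling cancels. The count of Rad18 per count of Usp1 was 0.129, 0.144 and 0.156 in Control samples and 0.255, 0.262 and 0.22 in STZ samples. The groups did not overlap, and the mean ratio was 1.72 times higher with STZ. The count of Rev1 per count of Rev3l was 0.705, 0.914 and 0.847 in Control samples and 1.01, 1.17 and 1.19 in STZ samples, a mean 1.37 times higher, again with no overlap. The count of Polh per count of Polq went from between 0.992 and 1.07 in Control samples to between 1.55 and 1.58 in STZ samples.

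Of the remaining pairs, Rev1 per Mad2l2 and Polh per Rev3l had mean ratios 1.47 and 1.46 times higher with STZ, with separate groups. The count of Polh per count of Polk was 1.85 to 2.15 in Control and 2.1 to 2.52 in STZ samples, and that of Rev1 per Polh was 1.35 to 1.65 and 1.38 to 1.46. The count of Mad2l2 per count of Rev3l was 0.494 to 0.541 in Control and 0.434 to 0.532 in STZ samples. In these last 3 pairs the groups overlapped. The ratios were chosen with the counts known and carry no test, and an exact two-sided permutation test of 3 samples against 3 cannot give a p under 0.1.

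**Figure D3:**
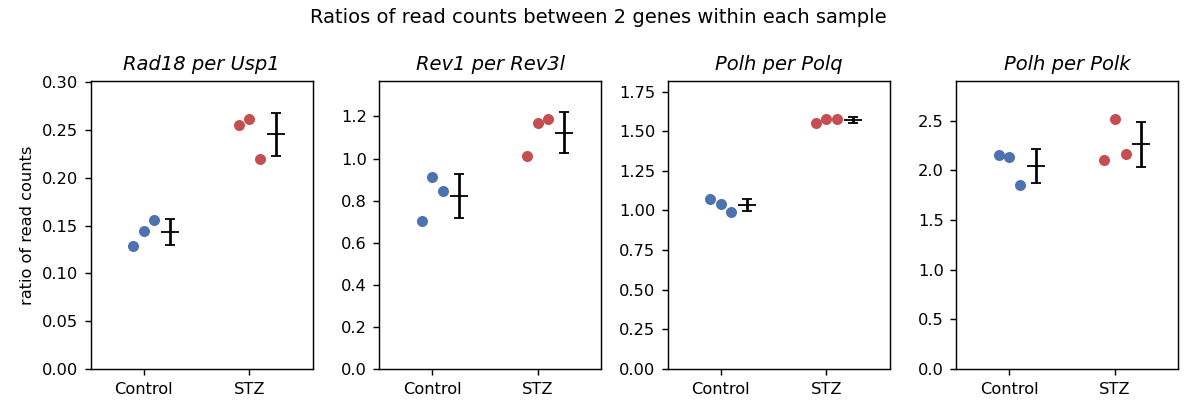
Ratio of read counts of 2 genes in the same sample (vertical axes, from 0), for Control and STZ samples. Points are samples and bars are the mean ± SD of 3 samples. STZ points are above all Control points for Rad18 per Usp1 (1.72 times), Rev1 per Rev3l (1.37 times) and Polh per Polq (1.52 times), while they mix for Polh per Polk.

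Partners of these proteins were examined as lists of genes. Of all genes tested, 50.9% passed the adjusted threshold by edgeR, 25.9% higher and 25.1% lower. The counts in this and all later lists stand beside those shares, and no list was tested as a set. Of 19 genes of PCNA and its ubiquitin cycle, 4 rose and 7 fell with STZ, at a median log2 fold change of -0.09, against -0.01 over all genes tested. Pcna, the clamp itself, fell most, with 3317, 3594 and 3455 normalized counts in Control samples and 2125, 2019 and 2095 in STZ samples. Its log2 fold change was -0.73 (SE 0.04, adjusted p = 3.7e-19 by edgeR). Some genes of this list were named after their values were seen. Wdr48, the activating partner of USP1, had a log2 fold change of -0.14 (edgeR, adjusted p = 0.019). Ube2a and Ube2b, the rat genes for RAD6, had log2 fold changes of 0.13 (adjusted p = 0.071) and 0.13 (adjusted p = 0.0091). Sprtn, a protease that removes proteins bound to DNA, rose by 0.40 on the log2 scale (edgeR, adjusted p = 2.1e-06).

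Of 11 replicative polymerase genes tested, 0 were higher by edgeR at the adjusted threshold and 5 were lower, with a median of -0.12. Pold1, the catalytic subunit of polymerase delta, had the smallest p and a log2 fold change of -0.45 (edgeR, adjusted p = 7.7e-08), and Pole2 had the largest change, -0.51 (adjusted p = 1e-04). Pold2 and Pold3, accessory subunits that polymerase delta shares with polymerase zeta and that were named after their values were seen, fell by 0.37 and 0.21 (adjusted p = 3.8e-07 and 0.0087). Pole3 stood on more than 1 row and was not used.

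Of 6 other specialised polymerases tested, 1 was higher and 2 were lower. Primpol, which restarts synthesis beyond a lesion by making a new primer, rose by 0.46 on the log2 scale (edgeR, adjusted p = 0.0071). It had few reads, with 83.3, 67.9 and 85.4 normalized counts in Control samples and 110, 122 and 95.5 in STZ samples. Polg, the polymerase of mitochondria, had the smallest p and a log2 fold change of -0.29 (adjusted p = 9e-06). Poln and Dntt were not found by symbol among the genes counted and so were not tested.

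Among 11 genes of fork reversal and single-stranded DNA binding, 2 were higher and 4 lower, with a median of -0.10. Blm, a helicase of recombination intermediates, had both the smallest p and the largest change, -0.59 (edgeR, adjusted p = 8.3e-09). Of 6 genes of FANCD2 monoubiquitination, whose modified product is also a substrate of USP1, 2 were higher and 2 lower, and the 4 past the threshold became 2 without STZ replicate 1. Fancl, the ligase, had a log2 fold change of -0.42 (edgeR, adjusted p = 0.0013).

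Mad2l2 and Polq have partners outside translesion synthesis. Of 6 genes of shieldin and 53BP1, 2 were higher and 3 lower, with a median of -0.32. Rif1 fell by 0.51 (edgeR, adjusted p = 7e-11), and Shld1 by 0.53 with overlapping groups (adjusted p = 0.028). The number past the threshold in this list, 5, was 3 with any 1 sample left out and 2 by DESeq2. Of 14 genes of end joining by polymerase theta, 1 was higher and 4 were lower. The 1 that rose was Xrcc1, a scaffold of single-strand break repair, with a log2 fold change of 0.75 (edgeR, adjusted p = 7.6e-16). In the GRCr8 annotation Polg overlaps Fanci, Primpol overlaps Cenpu, Fancl overlaps Vrk2, Pole2 overlaps Klhdc1 and Ube2b overlaps Cdkl3, so reads may be shared within these pairs. Polh, Rev3l and Polq overlap annotated pseudogenes, which were not among the genes counted.

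**Figure D4:**
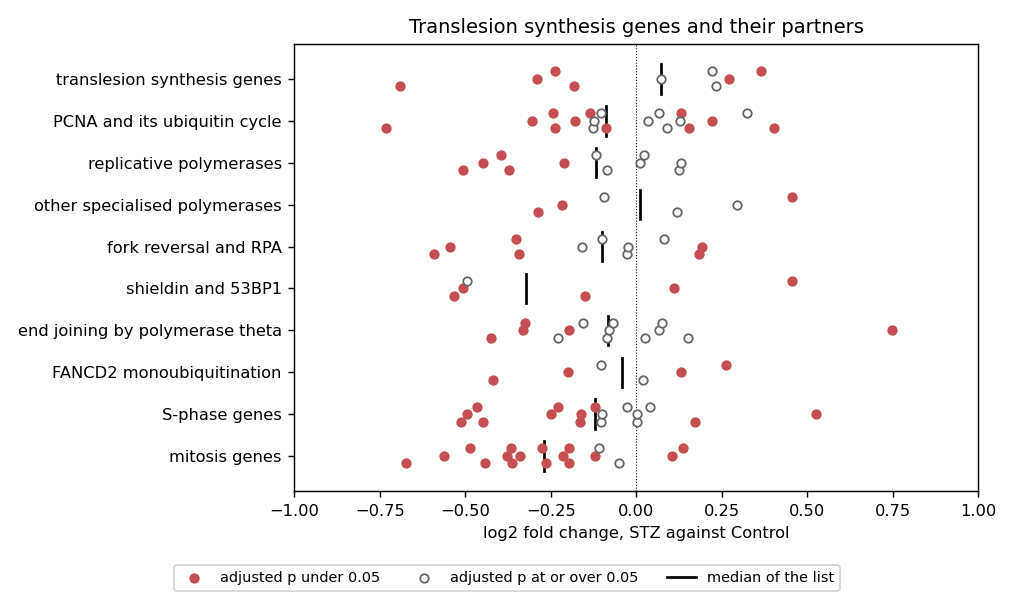
Log2 fold change (horizontal axis, STZ against Control) of the 9 translesion synthesis genes and of the tested genes of 9 partner lists. Each point is a gene, filled where the adjusted p was under 0.05, and black bars are list medians, from -0.32 (shieldin and 53BP1) to 0.07 (translesion synthesis genes). Points lie on both sides of 0 in each list, with mitosis genes mostly to the left.

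Usp1 and Polq are known as genes of proliferating cells, so genes of the cell cycle were set beside them. Of 18 mitosis genes, 2 were higher and 14 lower, with a median of -0.27. Their summed level was 3837 to 4031 CPM (reads scaled to a common library size) in Control samples and 3191 to 3241 in STZ samples. Mki67 changed most, with a log2 fold change of -0.67 (edgeR, adjusted p = 9.9e-18). Of 17 S-phase genes tested, 2 were higher and 9 lower, with a median of -0.12 and summed levels of 2179 to 2389 and 2059 to 2086 CPM. Tyms, which makes thymidylate, had the smallest p of these and the largest change, a rise of 0.52 (edgeR, adjusted p = 6.4e-14). The part of these shifts in the lower values of Usp1, Mad2l2, Polq and Rev3l was not tested, and fewer dividing cells cannot be told apart from less RNA per cell in bulk samples.

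Most genes of a list of described p53 targets were higher in the same samples. Of 9 such genes, which overlap a pathway reported for these samples by the study and are thus no independent evidence, 7 were higher and 1 lower. Cdkn1a, Mdm2, Btg2, Ccng1 and Sesn2 had log2 fold changes of 2.49, 1.95, 1.75, 1.66 and 1.30, and were named because they passed the fold-change threshold. Of the others that rose, both named after their values were seen, Bax had 0.86 and Rrm2b 0.21 (edgeR, adjusted p = 0.0065), beside 0.36 for Polh. The part of p53 in the rise of Polh was not tested. The lower gene was Ddb2, a damage sensor named after its value was seen, with a log2 fold change of -0.53 (edgeR, adjusted p = 0.0011). Ddb2 overlaps Acp2 in the GRCr8 annotation, so reads may be shared, and Acp2 rose by 0.25 (edgeR, adjusted p = 6.7e-05).

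Usp1 had the smallest p of the 9 genes. Among 9889 genes with a mean of at least 50 normalized counts, those whose log2 levels followed Usp1 most closely over the 6 samples were Tmem123, Wdr11 and Mex3b, with Pearson correlations of 0.9986, 0.9982 and 0.998. Their log2 fold changes by edgeR were -0.39, -0.25 and -1.51, beside -0.69 for Usp1, so the sizes differed. The samples form 2 groups, so these correlations largely describe a shared difference between groups, and 128 genes had a correlation over 0.99.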

How the data were processed

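RNA was sequenced from 3 Control and 3 STZ samples, grouped by their labels. Per the labels and methods, libraries were made with a stranded mRNA kit and read single-end. The authors aligned reads to Rnor6 with STAR 2.7.10a, took the number of uniquely mapped reads of each gene from featureCounts, and deposited these raw counts, not normalized. The annotation release and strand setting are not given in the sources used here.

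From the counts, scaling (TMM), filterByExpr at default settings, dispersions and the quasi-likelihood test were obtained by edgeR 4.0.16 (R 4.3.3) over 11870 of 18930 genes, with Benjamini-Hochberg adjustment over all of them. Group was the only term. Standard errors are the absolute log2 fold change over the root of F. Totals of 10430924 to 15191349 counts limit the precision of low genes. The steps were tested on simulated data, 3 samples against 3, with the common dispersion for every gene. At a true absolute log2 fold change of 1, 98 of 100 genes were called. At 0.5, 74 of 98 were called, and at 0, 7 of 11576. Sizes between 0 and 0.5, where most members lie, were not simulated. Samples of 1 group differed by more than sampling noise (chi-square per degree of freedom of at least 1.85). That cannot tell separate cultures from separate libraries of 1 culture. The common coefficient of variation between samples of a group, from edgeR, was 3.25%. Each sample was counted once.

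Besides the 9 members, the genes named are the smallest p and the largest change past the threshold in each partner list, and list genes past both thresholds. Wdr48, Ube2a, Ube2b, Sprtn, Pold2, Pold3 and Ddb2, with Bax and Rrm2b, were named outside this rule, after their values were seen. Members and lists were chosen with earlier results of these data known. Alternatives were other filters, scalings and tests (exact, likelihood ratio, DESeq2 1.42.0, limma-voom 3.58.1, glmTreat), a replicate block and each sample left out. Promoter windows came from RefSeq (GRCr8), with windows of 8 members reported and 1 not reported here.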

Additional observations from a re-analysis of the deposited data

How the results depend on the processing

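The 9 members were refitted under 17 alternatives each, which did not include glmTreat. Under glmTreat, Polh, Rev1, Mad2l2, Polq and Rev3l did not pass, as counted below. Direction and side of the adjusted p-value threshold held in 145 of 153 refits, and in all of them for Polh, Rev1, Mad2l2, Polq, Usp1 and Poli. Rad18 passed no threshold, and its direction turned in 1 refit, with -0.0027 without Control replicate 1 against 0.15 without Control replicate 3. The log2 fold change of Polk was 0.22 with edgeR's exact test (adjusted p = 0.047) and 0.22 with its likelihood ratio test (adjusted p = 0.043), both past the threshold, and 0.18 to 0.27 without single samples. That of Rev3l was -0.18 with DESeq2, not past it, and -0.24 to -0.12 when single samples were left out. The cause was not tested.

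Of the members, 6 passed the adjusted p-value, 5 to 6 without single samples, and 1 with glmTreat against 0.5, which requires the change itself to exceed that size. The number of genes past the threshold in the list of shieldin and 53BP1, 5, was 2 with DESeq2 and 3 to 3 with one sample left out. In the list of FANCD2 monoubiquitination, 4 became 2 without STZ replicate 1, and 2 to 4 over the samples left out. The other list counts moved by no more than 1.5 times. Other scalings moved the median of all genes by less than 0.1 and turned no member.

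The deviations of samples with the same replicate number correlated at 0.0338, -0.0339 and 0.104 over 10341 genes, and the numbers were not taken as pairs. With the replicate block, 6 members passed (2 higher and 4 lower) and no member's call changed. Poli had the fewest reads of the members.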
